A study of Saccharina japonica with 9 samples.

Results

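The bins with male-biased methylated reads are stretches of 10 kb on the nuclear scaffolds of *Saccharina japonica* in which male gametophytes carried a larger share of their methylated reads than female gametophytes. Of 58954 bins with a listed methylated cytosine (mC) in any library, 1760 were members, on 519 of 9613 scaffolds. A member had at least 10 methylated reads in each male library and at least 1 in some female library, its lowest male share lay above its highest female share, and its mean male share was at least 2 times its mean female share. A share is the methylated reads of a bin divided by all nuclear methylated reads of the same library. The members were chosen by the male and female values, so the difference between these is described without a test. The sporophyte libraries did not enter the choice.

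*Saccharina japonica* is a brown alga whose life cycle alternates between a large diploid sporophyte and microscopic haploid gametophytes. Sex is expressed in the haploid phase, where females carry a U and males a V sex chromosome, and a sporophyte carries both. Cytosine methylation is read by bisulfite sequencing, which turns unmethylated cytosines into bases read as thymine and leaves methylated cytosines as they are. It is recorded by the bases that follow the cytosine, as CpG, CHG or CHH, where H is any base but G.

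Whole-genome bisulfite sequencing of strain Ye-c12 gave 9 libraries, 3 from each of 3 stages. Sporophytes (SP, diploid, 4 months old, blades of a few centimetres) came from a cross of female with male gametophytes. Female gametophytes (FG) and male gametophytes (MG), both haploid and 2 months old, were taken from a blade of a Ye-c12 sporophyte and multiplied by gametophyte cloning. The material of each sex may therefore descend from few founder gametophytes, and a difference between FG and MG cannot be told apart from a difference between those founders.

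The libraries held 694551 to 1787624 nuclear methylated reads in SP, 3549494 to 6412845 in FG and 5229482 to 6562515 in MG. Every listed mC had at least 5 reads and at least 1 methylated read, with a median coverage of 7 to 9 reads. Cytosines without a methylated read are not in these lists, so a fuller methylation of the same DNA and a larger amount of that DNA in the library cannot be told apart from the sum of methylated reads. SP replicate 1 stood apart from the other SP libraries: in the members, 27.5% of its mCs were CpG, against up to 58.7% in the others. Bins with under 10 methylated reads in some MG library took 5.85% of the methylated reads of FG replicate 3 and 4.68% of those of SP replicate 1, but 0.452% to 0.952% of those of the other libraries. Counts and ratios that used SP are given with and without SP replicate 1, and other SP values by library.

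Of 54255 bins with at least 10 methylated reads in each MG library, 6852, or 12.6%, had every MG share above every FG share. No read was found in any FG library in 376 of them, which left 6476, and 1760 of these reached the 2-fold ratio. Over all 53879 bins that passed both read minimums, the median ratio of mean MG to mean FG share was 0.996. The ratio of the members had a median of 2.46, quartiles of 2.15 and 7.39 and a maximum of 1064. Most members lay just above the threshold and the rest formed a long tail. A ratio of 4, chosen after the values were seen, is used below to describe the lower 1178 and the upper 582 members. The upper members included 174 bins at 50-fold or more.

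**Figure D1:**
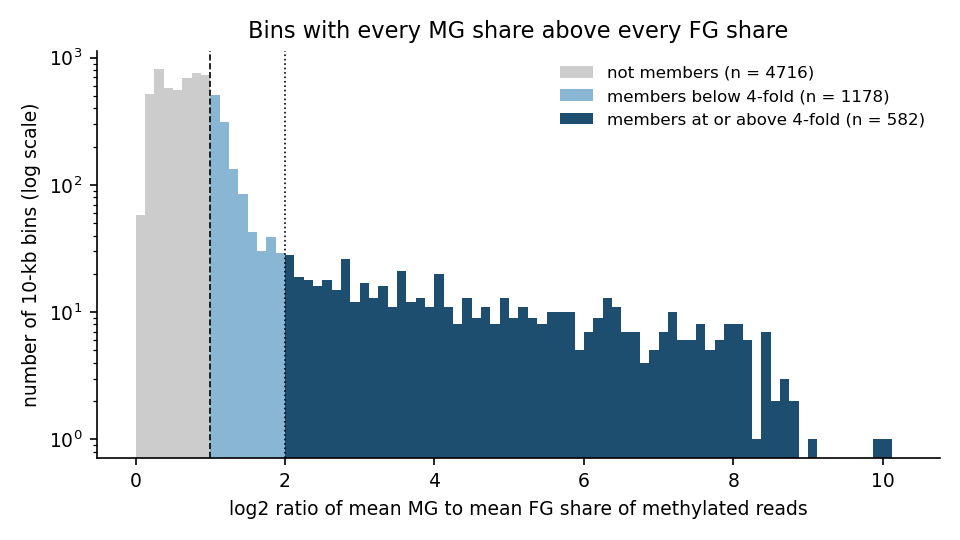
Number of 10-kb bins (log scale) against the log2 ratio of mean MG to mean FG share, for the 6476 bins in which every MG share lay above every FG share. The dashed line is the 2-fold threshold and the dotted line the 4-fold split, which leave 4716 bins outside, 1178 lower members and 582 upper members.

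The threshold cut through a dense part of this distribution. Between ratios of 1.8 and 2 lay 912 bins without overlap, and 551 members lay between 2 and 2.2. The members just inside were scaffold 123 from position 430001, scaffold 11 from 320001 and scaffold 720 from 210001, all with a ratio of 2.00. The bin on scaffold 123 had 249, 239 and 269 methylated reads in MG and 103, 94 and 113 in FG. The bins just outside were scaffold 2363 from 20001, scaffold 162 from 230001 and scaffold 1484 from 50001, whose ratios also rounded to 2.00. The bin on scaffold 162, which is placed on chromosome 4, had 120, 113 and 147 methylated reads in MG and 53, 21 and 101 in FG. In these pairs of neighbours the membership turned on a ratio that differed by less than the spread between the FG libraries.

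The lower members combined a raised MG level with a reduced FG level. Levels are given as methylated reads of a bin per 1000000 nuclear methylated reads of the library (mRPM). The median level of the lower members was 27.7, 28.1 and 24.5 mRPM in the MG libraries and 11.8, 11.6 and 11.9 in the FG libraries. The 52119 other bins that passed the read minimums had medians of 17.4 to 17.7 in MG and 17.5 to 18.2 in FG. The SP medians of the lower members, 15.9, 17.3 and 17.4 mRPM, were close to those of the other bins, 17.3 to 17.4.

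The upper members differed from the other bins in FG and SP rather than in MG. Their MG medians were 18.7, 18.7 and 17.9 mRPM, near the 17.4 to 17.7 of the other bins. Their FG medians were 0.858, 0.845 and 0.780 mRPM, which is 4, 3 and 5 methylated reads per bin. Their SP medians were 4.48, 2.88 and 3.73 mRPM, or 8, 2 and 3 reads per bin. No FG library was at 0 in the typical upper member, but 216 of the 582 had no read in at least 1 FG library, and 52 had a single methylated read over all FG libraries.

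**Figure D2:**
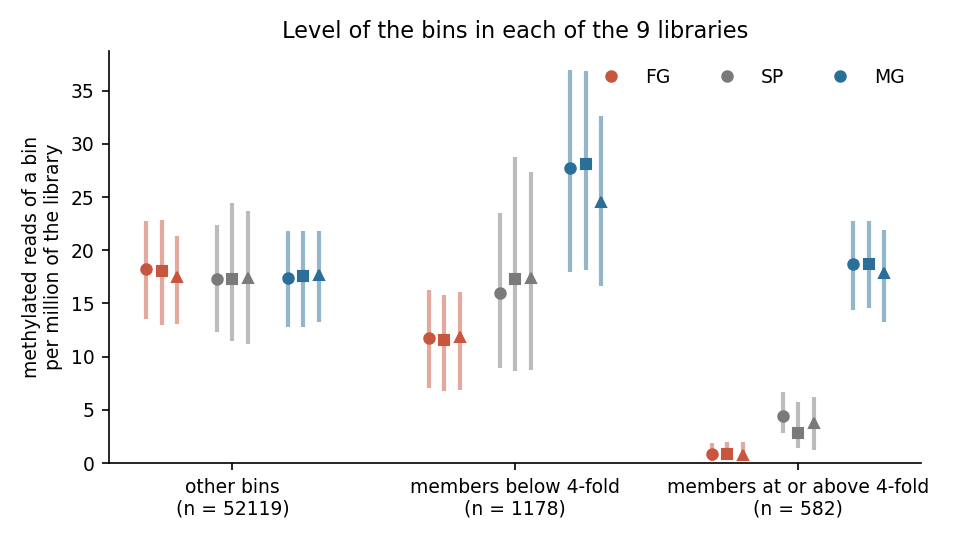
Methylated reads of a bin per 1000000 nuclear methylated reads of the library (mRPM), as median (point) and quartiles (bar) for each of the 9 libraries, with circle, square and triangle for replicates 1, 2 and 3. The lower members were high in MG (24.5 to 28.1) and low in FG (11.6 to 11.9), whereas the upper members were at 17.9 to 18.7 in MG and at 0.780 to 0.858 in FG.

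Together the members held 4.45%, 4.44% and 4.03% of the methylated reads of the MG libraries, a mean of 4.31% ± 0.243 (SD, n = 3). The FG libraries held 1.46%, 1.45% and 1.44% there, a mean of 1.45% ± 0.0116 (SD, n = 3). The SP libraries held 2.39%, 2.67% and 2.56%, a mean of 2.54% ± 0.143 (SD, n = 3), between the other stages in every library. The lower members made up 3.09% ± 0.196 of the MG reads, 1.37% ± 0.00889 of the FG reads and 2.18% ± 0.170 of the SP reads. For the upper members these shares were 1.22% ± 0.0479, 0.0855% ± 0.00546 and 0.364% ± 0.0319 (SD, n = 3 each).

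Among members with at least 100 methylated reads in each MG library, of which there were 1045, the largest ratios were found on unplaced scaffolds. Scaffold 2172 from 30001 to 40000 had 600, 598 and 495 methylated reads in MG, 0, 1 and 0 in FG and 92, 45 and 38 in SP. Pooled over libraries, its MG share was 1436 times its FG share, with an exact 95% interval of 257 to 56736 that covers counting error only and is this wide because it rests on 1 FG read. Scaffold 1275 from 10001 to 20000 had 1299, 1205 and 1683 reads in MG, 0, 1 and 3 in FG and 222, 60 and 90 in SP. The other bins of this order were less deep: scaffold 1211 from 20001 had 147, 151 and 158 reads in MG, scaffold 1377 from 60001 had 116, 130 and 157, and scaffold 2797 from 20001 had 111, 119 and 141. Each of these 3 had 0 reads in FG replicates 1 and 2 and 1 read in FG replicate 3, with lower interval bounds of the pooled ratio of 69.1, 61.0 and 56.1.

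The bins on scaffolds 2172 and 1275 also stood out in depth. The mean coverage of their mCs was 4.49 to 4.54 times the library mean in MG for scaffold 2172 and 10.04 to 13.46 times for scaffold 1275. In SP it was 1.89 to 2.25 and 4.83 to 5.33 times the library mean. The bins on scaffolds 1211, 1377 and 2797 lay at 0.728 to 0.929 times the library mean in MG. Over all members, 59 had MG mCs covered more than 2 times as deeply as the library mean, or 3.35% against 1.93% of the other bins.

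The SP level lay between the FG and MG means in most members. This held for 1539 of the 1760, while 68 had an SP mean at or above the MG mean and 153 at or below the FG mean. Of the other bins, 11.1% had the SP mean between the other means. Without SP replicate 1 the values were 1416 members and 9.22% of the other bins. The rule set a gap of at least 2-fold between the MG and FG means of a member. The other bins had a median MG-to-FG ratio of 0.990, which leaves little room between the means, so their share is no matched background. In 1186 members every SP share lay below every MG share, which is 67.4% against a background of 13.5% of all bins that passed the read minimums. In 949 members, 53.9%, every SP share lay above every FG share, against a background of 8.23%. Without SP replicate 1 these counts were 1232 and 1089, against backgrounds of 20.7% and 17.6%. MG and FG values entered the rule, so a distance of SP from at least one of them is partly set by the choice of members.

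The SP level moved further from MG as the ratio of MG to FG grew. Both ratios contain the mean MG share, so this trend is partly set by the sorting and was not tested. The median ratio of SP to MG share was 0.697 in the 908 members between 2 and 2.5-fold, 0.525 in the 115 between 3 and 4-fold, 0.276 in the 134 between 7 and 15-fold and 0.168 in the 174 members at 50-fold or more. It was 0.672 over the lower members and 0.234 over the upper members, and 0.698 and 0.223 without SP replicate 1. The ratio of SP to FG share in the upper members had a median of 4.40, and 4.12 without SP replicate 1, so that by ratio SP lay about as far above FG as below MG.

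**Figure D3:**
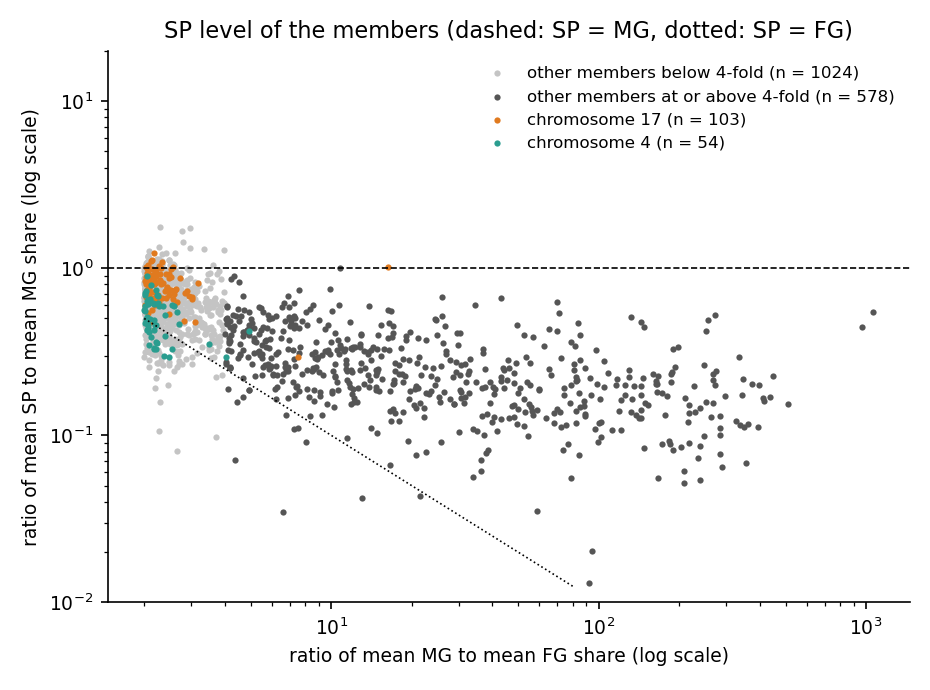
Ratio of mean SP to mean MG share against the ratio of mean MG to mean FG share, both on log scales, for the members placed on chromosome 17, on chromosome 4 and elsewhere (1 member without an SP read is left out). The lower members had a median SP-to-MG ratio of 0.672 and the upper members of 0.234, and the members of chromosome 17 lie nearer to the MG level than those of chromosome 4. Both axes contain the mean MG share.

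The members with the lowest and highest SP level show the span. Scaffold 1101 from 60001 had 137, 104 and 119 methylated reads in MG, 3, 1 and 1 in FG and 4, 0 and 0 in SP. Scaffold 766 from 180001 had 102, 119 and 129 in MG, 7, 8 and 6 in FG and 2, 1 and 0 in SP, and was among the 153 members whose SP mean did not exceed the FG mean. Scaffold 1783 from 50001 had 110, 130 and 132 in MG, 0, 0 and 2 in FG and 6, 0 and 0 in SP. In these bins the SP level rested on 3 to 6 reads, nearly all from SP replicate 1.

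At the other end, scaffold 123 from 400001 had a larger share in SP than in MG. Its levels were 57.1, 51.8 and 41.1 mRPM in SP, 41.5, 40.9 and 29.9 in MG and 19.7, 12.4 and 17.2 in FG, so the SP and MG libraries overlapped and the FG libraries lay below both. Scaffold 2471 from position 1 had 32.4, 51.8 and 38.6 mRPM in SP and 26.1 to 35.8 in MG. Scaffold 496 from 130001 had 38.0, 51.8 and 52.3 in SP and 33.4 to 41.8 in MG.

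For the stages, the methylated reads of all bins were fitted with edgeR (quasi-likelihood test, adjusted p below 0.05). MG against FG repeats the contrast of the rule: 1708 of the 1760 members were called higher in MG, where 7.96% of all 57915 bins tested were called, and nothing is read from this. In MG against SP, 822 members were called higher in MG and 0 lower at the adjusted p (2 lower at an unadjusted p below 0.05, and 0 lower by DESeq2), against a background of 3.83% of 57459 bins called higher and 2.97% called lower. The unadjusted count was made for the members alone and has no share over all bins beside it. All 1760 members passed the count filter of this comparison through their MG reads. The rule chose bins for high MG values and the background did not. The counts of higher and of lower calls therefore describe the members and are no evidence of a difference from SP that is independent of the choice. The members' median log2 difference was 0.89, against 0.03 over all bins. Of the upper members 493 of 582 were called, with a median of 2.02, and of the lower members 329 of 1178, with a median of 0.60. Without SP replicate 1 the count was 568, 435 upper and 133 lower members, against a background of 2.40%.

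In FG against SP, 374 of 1704 members tested were called lower in FG and 0 higher (5 higher at an unadjusted p below 0.05, and 0 higher by DESeq2), against a background of 1.22% of 56823 bins called lower and 0.111% called higher. Here too the unadjusted count was made for the members alone. The median log2 difference of the members was -0.77, against 0.02 over all bins. The rule chose bins for low FG values, so the same limit holds here. Of the 527 upper members tested 183 were called, and of the 1177 lower members 191. Leaving out SP replicate 1 reduced the count to 164, against a background of 0.505%, SP replicate 2 to 182, SP replicate 3 to 183 and FG replicate 3 to 229. Over all bins the last 3 settings gave 403, 409 and 443 calls, against 694 with all libraries.

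These directions are relative to all methylated reads of a library. Per mapped read, SP held fewer methylated reads nearly everywhere, and the median of all bins moved to 2.60 on the log2 scale for MG against SP and to 2.42 for FG against SP. Relative to that shift the members stayed on the same sides, with medians of 3.45 and 1.64. By sign 1760 members were called higher in MG than in SP, but so were 56835 of all bins. In FG against SP, 1235 members were called higher and 56 lower. Of all bins 229 were called lower, and no count of all bins called higher is given here. These calls by sign are therefore not read as a trait of the members.

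The members were not spread evenly over the scaffolds. Of 519 scaffolds with a member, 277 had just 1, while 40 had 10 or more and held 641 members. Neighbouring members formed 1037 runs, of which 665 were single bins, and 62.2% of the members adjoined another. Lower members alone were found on 300 scaffolds, upper members alone on 146 and both on 73. The scaffolds with both held 292 of the 582 upper members and 176 of the 1178 lower members. The scaffolds with upper members alone were short, with a median of 2 bins, against 6 for those with lower members alone.

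Bins next to a member were often near the threshold. Of 910 neighbours of lower members that were not members, 870 had a ratio, with a median of 1.76 and quartiles of 1.60 and 1.87. Of 314 neighbours of upper members, 226 had at least 10 methylated reads in each MG library and none in any FG library, so that no ratio could be formed. In all, 376 bins of the genome were of that kind, and 427 of the 582 upper members lay on a scaffold with at least 1 of them, against 81 of the 1178 lower members. Like the upper members, these 376 bins had MG medians of 17.2 to 18.1 mRPM and SP medians of 1.24 to 2.80.

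The most members were found on scaffold 252, where 37 of 42 bins qualified, followed by scaffolds 84 with 30 of 61, 277 with 28 of 40, 133 with 26 of 54 and 36 with 23 of 75. All members on these 5 scaffolds were lower members. Scaffolds 252 and 84 are placed on chromosome 17 and scaffold 36 on chromosome 9. Averaged over its 42 bins, scaffold 252 held 28.7, 28.5 and 24.9 mRPM per bin in MG, 12.2, 11.9 and 12.4 in FG and 19.3, 22.5 and 22.1 in SP. On scaffold 36 the levels were 30.4, 29.6 and 27.7 in MG, 19.1, 19.6 and 18.0 in FG and 23.5, 28.0 and 27.8 in SP. On scaffold 252 the stages did not overlap and the SP libraries lay between the gametophytes. On scaffold 36 the FG libraries lay below all others, while 2 SP libraries lay just above MG replicate 3.

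The longest run was 26 bins on scaffold 252, from 60001 to 320000, with ratios of 2.04 to 3.10. The next was 10 bins on scaffold 1243, from 1 to 100000, with ratios of 3.94 to 351, and 2 runs had 9 bins. One lay on scaffold 345 of chromosome 17, from 110001 to 200000, with ratios of 2.06 to 2.51, and the other, with fewer MG reads, on scaffold 461, from 40001 to 130000, with ratios of 2.07 to 2.76. In the run on scaffold 1243 the median level was 19.4, 18.7 and 20.4 mRPM in MG, 0.107, 0.986 and 0.546 in FG and 3.92, 1.44 and 2.49 in SP. The run on scaffold 345 had medians of 34.6, 35.4 and 29.7 in MG, 14.8, 12.4 and 14.0 in FG and 20.7, 28.8 and 28.6 in SP. The runs thus repeated the 2 patterns, an MG excess over an intermediate SP level, and an MG level beside a near absence in FG.

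**Figure D4:**
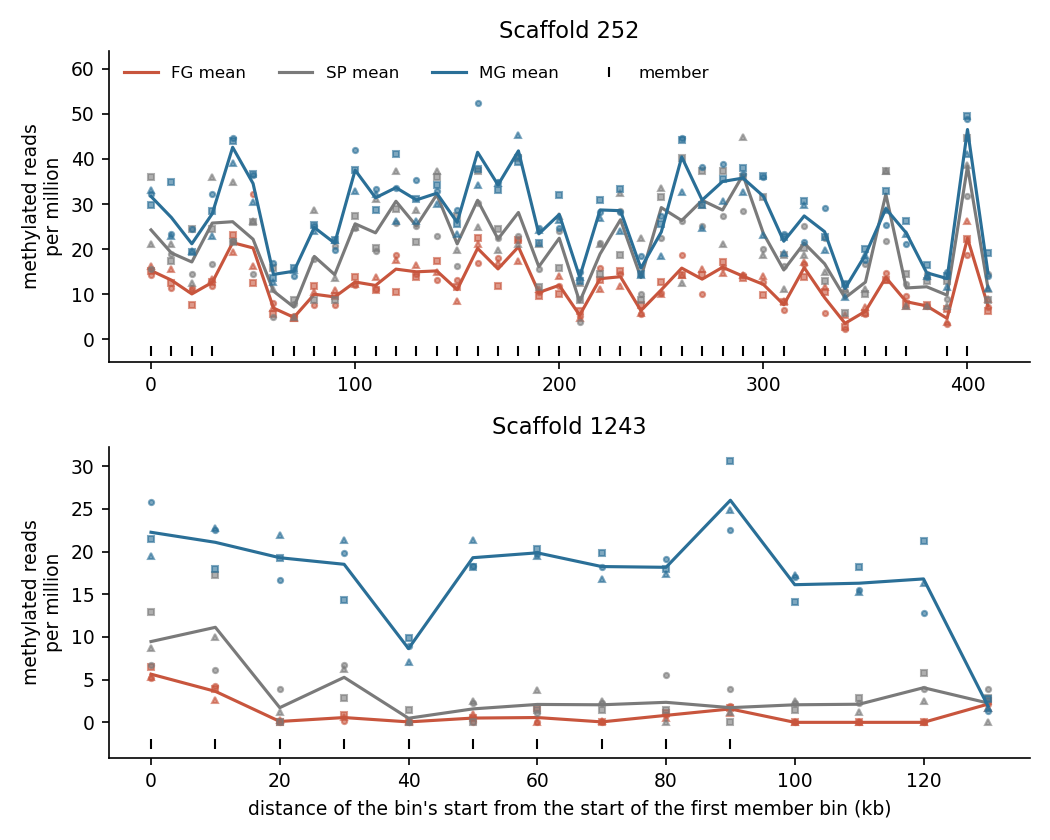
Methylated reads per 1000000 (mRPM) in each bin along scaffolds 252 and 1243, by the distance of the bin from the first member bin (lines are means of 3 libraries, points are libraries, and ticks under the lines mark members). On scaffold 252 the SP mean lies between FG and MG in 39 of 42 bins and above MG in 3, whereas on scaffold 1243 FG is close to 0 and SP stays low over most of the 14 bins.

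Of the 1760 members, 244 lay on scaffolds that the names of nuclear tRNA genes place on a linkage group, and 49 of these belonged to the group of unanchored scaffolds called chromosome 0. Among 31 numbered chromosomes, 10 held a member. Chromosome 17 had 103 members among 193 bins, or 53.4%, on all 5 of its placed scaffolds. Chromosome 4 had 54 among 372 bins, or 14.5%, on 9 of 10 scaffolds. Over the whole genome the share was 2.99%. Chromosome 9 had 23 members among 383 bins, all on scaffold 36, and chromosome 12 had 3 among 312, all on scaffold 67. No member lay on the placed scaffolds of chromosomes 7 or 29. Of the upper members, 97.3% were on scaffolds with no placement, which hold 84.8% of all bins. No placement here means that no nuclear tRNA gene names the scaffold. The paper anchored more scaffolds to its genetic map, so these bins need not be unanchored.

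The members of chromosomes 17 and 4 shared the MG-to-FG ratio, with medians of 2.19 and 2.17, but had different SP levels. On chromosome 17 the medians were 30.6 to 35.4 mRPM in MG, 13.5 to 14.8 in FG and 21.8 to 28.8 in SP. On chromosome 4 they were 22.7 to 27.0 in MG, 10.6 to 11.5 in FG and 11.2 to 12.6 in SP. The SP-to-FG ratio had a median of 1.78 with quartiles of 1.55 and 2.02 on chromosome 17, and of 1.12 with quartiles of 0.933 and 1.39 on chromosome 4. Without SP replicate 1 the medians were 1.92 and 1.07.

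The 2-fold threshold sets a floor under both ratios of MG to FG. Over all bins, members or not, the median ratio was 2.05 on chromosome 17 and 1.73 on chromosome 4, and the SP level again differed. All bins of chromosome 4 had SP medians of 16.8 to 17.4 mRPM, FG medians of 16.5 to 17.6 and MG medians of 27.9 to 30.7. All bins of chromosome 17 had SP medians of 23.5 to 30.2, FG medians of at most 17.6 and MG medians of up to 36.1. In edgeR's test with adjusted p below 0.05, 33 of 54 members on chromosome 4 were called higher in MG than in SP and 14 of 103 on chromosome 17, whereas 0 and 30 were called lower in FG than in SP. Over all bins of chromosomes 4 and 17, members or not, 195 of 372 and 19 of 193 were called higher in MG. Lower in FG were 0 of 371 and 39 of 192, so these calls were not particular to the members. Over the whole genome 3.83% were called higher in MG and 1.22% lower in FG. Without SP replicate 1 the members' counts were 21 and 3 for MG, and 0 and 21 for FG, against whole-genome shares of 2.40% and 0.505%. The difference between the chromosomes was not tested. On chromosome 9, the members' medians were 34.0 to 35.4 in MG, 14.5 to 16.3 in FG and 21.6 to 26.1 in SP.

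The excess of MG was present in each sequence context. The lower members held 2.02 times as large a share of the CpG methylated reads in MG as in FG, 2.30 times of CHG and 2.34 times of CHH. For the upper members the ratios were 15.2, 13.1 and 14.3. The contexts of the members' mCs were close to those of other bins in the same stage: in MG, 20.6% ± 3.16 were CpG, 20.7% ± 0.510 CHG and 58.6% ± 2.65 CHH (SD, n = 3), against 22.2% ± 1.84, 19.8% ± 0.143 and 57.9% ± 1.70 in other bins. Both strands were used alike, with 49.7% to 50.7% of the MG mCs on the plus strand.

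The excess came from more listed mCs rather than from more methylated reads at each. The ratio of MG to FG in the number of listed mCs had a median of 2.14 over the lower members and 17.8 over the upper members, beside 2.22 and 18.5 for methylated reads. A single methylated read was the rule: 95.1% ± 0.773 of the members' mCs in MG, 97.7% ± 0.336 in FG and 98.8% ± 0.362 in SP carried just 1 (SD, n = 3), against 96.8% ± 0.418, 97.2% ± 0.402 and 98.8% ± 0.288 in other bins. No member rested on a single site, since the most methylated site of a bin held at most 15.5% of its MG methylated reads, and the median was 1.64%. Of all reads at the members' listed mCs, 6.79% to 8.52% were methylated in MG and 10.5% to 12.4% in FG. In other bins these shares were 8.69% to 10.5% and 9.26% to 10.8%. Upper members had 5.63% to 6.69% in MG and 7.30% to 8.88% in FG. Their median level per mC was 10% to 12.5% in MG and 10% to 11.1% in FG. With 1 methylated read at most mCs, such a share falls as coverage rises. Whether the same DNA was more fully methylated in MG was not tested.

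The mCs of the members recurred more often than those of other bins among the MG libraries, and also among the SP libraries. In the 3 MG libraries, 11.7%, 11.2% and 11.0% of the members' mCs were listed in another MG library, against 8.47%, 8.14% and 7.44% in other bins. In FG the shares were 6.09%, 6.78% and 5.04% in the members and 7.19%, 8.04% and 6.11% elsewhere. The FG values of all members followed the lower members, which had 5.91%, 6.56% and 4.87%. The upper members went the other way and lay above the other bins in every FG library, with 8.96% in replicate 1 and 7.99% in replicate 3. Most mCs of the members were therefore listed in a single library of their stage. The rule chose bins for many MG and few FG methylated reads. How far recurrence depends on the number and depth of the listed mCs was not tested.

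Read coverage, which counts methylated and unmethylated reads alike, moved with the methylated reads in the lower members, and in part in the upper members. At cytosines listed in both of 2 libraries, the MG-to-FG coverage ratio of the lower members was 1.39 to 1.54 times that of other bins over the 9 pairs of libraries. It was 1.16 to 1.25 times for MG to SP and 0.816 to 0.900 times for FG to SP. For the upper members the MG-to-FG ratio was 1.41 to 1.62 times that of other bins, on 246 to 493 shared sites a pair. Their MG-to-SP ratio was 1.78 to 2.04 times that of other bins, on 183 to 555 shared sites. The FG-to-SP ratio of the upper members was 0.730 to 1.15 times, on 23 to 94 sites, and spanned 1. Without the pairs of SP replicate 1 the ranges to SP were the same at this precision, apart from 0.818 to 1.15 for the last. The pairs share libraries and are given without a test.

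**Figure D5:**
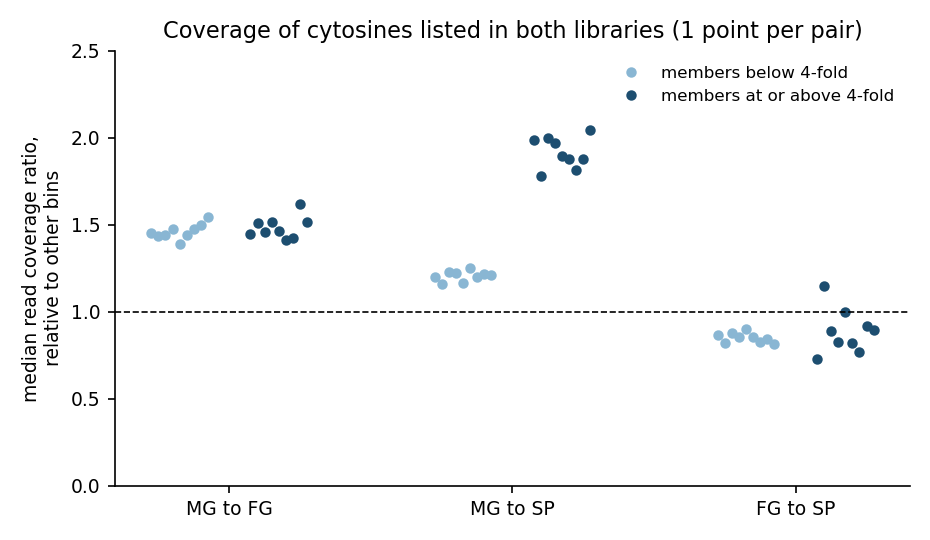
Median ratio of read coverage at cytosines listed in both libraries of a pair, divided by the same median in other bins, for the 9 library pairs of each stage comparison. In the lower members MG to FG lies at 1.39 to 1.54, MG to SP at 1.16 to 1.25 and FG to SP at 0.816 to 0.900. In the upper members MG to FG lies at 1.41 to 1.62, MG to SP at 1.78 to 2.04 and FG to SP at 0.730 to 1.15.

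The mean coverage of listed mCs per bin, relative to the median bin of the library, was tested with limma over the 46353 bins with at least 5 mCs in each of the 9 libraries. Of the members 973 passed, 921 lower and 52 upper, so the test hardly covers the upper members. In the lower members that passed, median coverage was 1.33, 1.35 and 1.38 in MG, 0.971, 0.977 and 0.972 in FG and 1.16, 1.12 and 1.12 in SP. In the 52 upper members that passed it was 1.35 to 1.38 in the MG libraries, 1.36 to 1.56 in FG and 1.27 to 1.69 in SP. The stages thus overlapped, and in these 52 bins coverage did not follow the methylated reads. In MG against SP, 219 of the 973 were called higher in MG at an adjusted p below 0.05 and 6 lower, with a median log2 difference of 0.27, against a background of 2.38% of all bins called higher, 0.880% called lower and a median of 0.01. The call did not hold in every setting: the count was 0 with the median in place of the mean coverage of a bin, 29 with centring on the library mean and 116 with the replicate number as a block. It was 9, 10 and 9 without MG replicate 1, 2 and 3, and 268, 85 and 62 without SP replicate 1, 2 and 3. With median coverage, library-mean centring and the block, 0, 107 and 525 of all bins were called higher. Without the MG libraries 12, 13 and 18 of all bins were called, and without the SP libraries 1664, 384 and 279. A listed mC needs at least 5 reads, so the sums that the rule used also depend on coverage. The members' count is therefore no evidence that is independent of their choice.

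In FG against SP, 11 of the 973 were called lower in FG and 2 higher, where 0.0280% of all bins were called lower and 0.00647% higher. The median log2 difference of the members was -0.20, and 484 were lower at an unadjusted p below 0.05, a count not made over all bins. The count at the adjusted p was 0 with median coverage, 19 with library-mean centring and 46 without SP replicate 1. Over all bins these settings gave 0, 39 and 126 calls. The rule chose bins for low FG sums, so the same limit holds here. On chromosome 4 the 42 members tested had median coverages of 1.17 to 1.23 in MG, 0.935 to 0.948 in FG and 0.903 to 0.926 in SP, and on chromosome 17 the 98 members tested had 1.33 to 1.40, 0.957 to 0.971 and 1.13 to 1.19. MG coverage was highest on both chromosomes. SP coverage lay between the gametophytes on chromosome 17 and just below FG on chromosome 4, where the SP medians of methylated reads were close to those of FG. What part of the male bias in methylated reads goes with this coverage was not tested.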

How the data were processed

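The deposited lists hold, for each methylated cytosine of 9 bisulfite libraries, methylated and unmethylated read counts without normalization and the methylation level as a fraction, which the authors computed as methylated over all reads. The authors aligned paired-end reads with Bismark to their assembly at default settings. The authors' p-values were not used. The deposited fraction equalled the ratio of the counts at every site. Methylated reads were summed per 10-kb bin of nuclear scaffolds, organelles left out.

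Methylated reads were tested with edgeR 4.0.16 (quasi-likelihood, nuclear totals as library sizes, at least 10 reads over the libraries compared) and site coverage with limma 3.58.1 on the log2 scale, in R 4.3.3, with Benjamini-Hochberg adjustment over all bins. DESeq2 1.42.0 was an alternative. Tables were made with Python 3.11.15. The models were tested on simulated data. Shares, contexts and shared sites are descriptions.

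The members, the bins named and the tests were chosen with earlier results of these data known. Named were the 5 largest ratios at 100 or more reads in each MG library, the 3 longest runs (ties by more MG reads, with the tied run added), the 5 scaffolds with most members, the 3 bins on either side of the threshold, the 3 highest and lowest SP-to-MG ratios at that depth, and scaffolds of chromosomes 4, 7, 9, 12, 17 and 29. Replicates are described as biological by the study. Libraries of a stage differed by more than counting noise (chi-square per degree of freedom 1.16 to 8.29), so each counted once. Counts are reads, not independent molecules, so intervals cover counting error only. No genome was used here, so genes and sequences are not reported. Chromosome placement came from scaffold names of tRNA genes and covers 291 scaffolds, including chromosome 0.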

Additional observations from a re-analysis of the deposited data

How the results depend on the processing

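The number of members depended on what was summed and on the grid. It was 4208 with sites covered by at least 10 reads (1323 of the 1760 among them), 1165 with sites of at least 2 methylated reads (312 shared), 904 with summed methylation levels (863 shared), 1165 with CpG sites alone (880 shared), 3302 in 5-kb bins, 995 in 20-kb bins, 2755 with mapped reads as denominator (1757 shared), 4140 at a ratio of at least 1.5 and 697 at a ratio of at least 3. It stayed within 1.5 times, at 1671 to 1973, under the other planned choices, and at 1733 to 2059 when an MG or FG library was left out.

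With sites of at least 10 reads the members' share was 6.73% in MG, 1.21% in FG and 3.39% in SP. With sites of at least 2 methylated reads it was 6.03%, 0.901% and 1.99%, and with summed levels 3.59%, 1.55% and 2.37%. Without sites covered by more than 100 reads the FG share was 1.48%. For 14 named members the log2 ratio of MG to FG stayed positive in all 74 values that could be formed, of which 22 moved by more than the spread between libraries.

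Members called higher in MG than in FG numbered 227 of 1545 with at least 2 methylated reads per site, and 1668 to 1691 with a library left out. Over all bins these settings gave 425 and 4179 to 4524 calls. With mapped reads as library sizes, 1760 were called higher in MG than in SP, and 56 were called lower in FG than in SP while the members' median turned positive. Over all bins this setting gave 56835 and 229 calls. At least 50 reads per bin gave 192 members lower in FG than in SP, where 306 of all bins were called. Leaving out 1 library gave 568 to 842 for MG against SP and 164 to 324 for FG against SP, where 1378 to 2170 and 285 to 634 of all bins were called. For site coverage, MG against SP gave 0 calls with median coverage (611 at an unadjusted p below 0.05 in limma), 29 with library-mean centring and 9 to 268 with a library left out. FG against SP gave 0 with median coverage (359 at an unadjusted p below 0.05 in limma), 19 with library-mean centring and 9 to 46 with a library left out. The unadjusted counts were made for the members alone and have no share over all bins beside them.

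The replicate numbers did not clearly pair the libraries. Deviations of same-numbered libraries correlated at 0.01 to 0.12 for MG and FG, -0.03 to 0.04 for MG and SP and -0.05 to 0.01 for FG and SP. For libraries of unlike number these ranges were -0.11 to 0.05, -0.05 to 0.07 and -0.02 to 0.06. A weak pairing of MG with FG libraries can therefore not be excluded. With the replicate number as a block, 116 members were called higher in site coverage in MG than in SP, and 1720, 835, 473 and 14 were called in the other comparisons, in the order given above. Over all bins the block gave 525 calls in that coverage comparison, and 4849, 2256, 959 and 19 in the others. Shares of reads near 0 in FG and SP were limited by 2 to 8 reads per bin. Leaving SP replicate 1 out of the SP means, the counts without overlap, the shared-site pairs and the calls by class and chromosome was added after seeing the data.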
